A study of Mus musculus with 378 samples.

Results

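The genes described here are cytosolic and kappa-class glutathione transferases and cytochrome P450 enzymes of families 1 to 4 in mouse pancreatic islets. They were taken by symbol, as Gst followed by a lower-case letter and a digit, or Cyp followed by a digit from 1 to 4 and a letter. The rule found 46 of the 22180 genes in the deposited tables, 18 Gst genes and 28 Cyp genes, of which Cyp4f41-ps is named as a pseudogene and Cyp4x1os as an antisense transcript. Of these, 31 (15 Gst and 16 Cyp) passed a filter on low counts and were tested, and the other 15 are described by their levels alone. GENCODE mouse release 21 has 134 genes with symbols of this form, so most genes of these families were not analysed here.

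Islet RNA came from female and male Diversity Outbred mice, an outbred stock bred from several inbred founder strains so that each animal has a founder mix of its own. Sex was read from the letter in each title, males contributed 190 libraries, and every library was its own mouse. All of them, so both groups, had eaten a diet rich in fat and sugar in which fat made up 45%, and the labels used here give no untreated group and no age. Libraries were made from poly(A) RNA with the KAPA mRNA HyperPrep kit after ERCC control RNA had been added. Mouse numbers were divided into 4 bands of 100 starting at 21, which held 46, 46, 49 and 47 females and 45, 48, 50 and 47 males. Inside each band the females' numbers precede the males', apart from 1 female, so sex and numbering order cannot be told apart.

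Glutathione transferases couple the tripeptide glutathione to reactive, electrophilic compounds, or reduce them with it, and are named by classes (alpha, kappa, mu, omega, pi, theta, zeta). Cytochrome P450 enzymes are haem proteins that insert oxygen into drugs, hormones and fatty acids, and are best known from liver. In textbook accounts several genes of both kinds are switched on by the transcription factors NRF2, which binds antioxidant response elements, and the aryl hydrocarbon receptor, which binds xenobiotic response elements. Many of the genes lie in tandem clusters of close relatives.

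Upstream sequences are shown for 8 genes whose levels the results turn on: the abundant and variable Cyp1a1, its relative Cyp1b1, the neighbours Gstp1 and Gstp2, mu-class genes that moved together or oppositely, and the P450 with the widest spread, Cyp4f16. They are RefSeq sequences in build GRCm38.p6, up to 250 bases upstream of the RefSeq start and cut back where the deposited gene table puts the start further upstream, each written 5′ to 3′ on the gene's own strand, and capitals mark matches on either strand to TGACNNNGC, to TGAGNNNGC or to GCGTG.
Cyp1a1, chr9:57697363-57697612, plus strand: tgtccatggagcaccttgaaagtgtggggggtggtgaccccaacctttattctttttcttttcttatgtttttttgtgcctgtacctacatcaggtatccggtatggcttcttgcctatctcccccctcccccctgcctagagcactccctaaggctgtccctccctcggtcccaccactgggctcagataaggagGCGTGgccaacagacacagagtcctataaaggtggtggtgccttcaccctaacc
Cyp1b1, chr17:79715062-79715311, minus strand: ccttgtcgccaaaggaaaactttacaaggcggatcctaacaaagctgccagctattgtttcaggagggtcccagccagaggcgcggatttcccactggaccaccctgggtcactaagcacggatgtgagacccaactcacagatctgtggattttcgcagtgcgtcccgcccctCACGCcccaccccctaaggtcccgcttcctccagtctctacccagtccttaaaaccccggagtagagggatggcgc
Gstp1, chr19:4037922-4038162, minus strand: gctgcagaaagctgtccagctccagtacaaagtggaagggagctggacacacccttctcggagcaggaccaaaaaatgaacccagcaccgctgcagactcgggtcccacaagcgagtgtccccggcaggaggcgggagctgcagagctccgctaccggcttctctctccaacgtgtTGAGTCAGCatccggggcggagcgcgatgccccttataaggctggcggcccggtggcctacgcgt
Gstp2, chr19:4042237-4042471, minus strand: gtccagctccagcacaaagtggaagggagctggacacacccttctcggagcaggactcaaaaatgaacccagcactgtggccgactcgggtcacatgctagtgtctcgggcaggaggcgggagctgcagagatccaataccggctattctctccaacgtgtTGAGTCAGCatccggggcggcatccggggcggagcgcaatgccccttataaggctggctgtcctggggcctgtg
Gstm1, chr3:108017974-108018223, minus strand: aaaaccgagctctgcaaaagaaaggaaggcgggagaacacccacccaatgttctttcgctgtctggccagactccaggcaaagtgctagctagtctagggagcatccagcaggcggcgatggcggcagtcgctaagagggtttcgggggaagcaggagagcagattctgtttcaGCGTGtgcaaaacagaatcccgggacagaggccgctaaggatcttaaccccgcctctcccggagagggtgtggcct
Gstm5, chr3:107895604-107895820, plus strand: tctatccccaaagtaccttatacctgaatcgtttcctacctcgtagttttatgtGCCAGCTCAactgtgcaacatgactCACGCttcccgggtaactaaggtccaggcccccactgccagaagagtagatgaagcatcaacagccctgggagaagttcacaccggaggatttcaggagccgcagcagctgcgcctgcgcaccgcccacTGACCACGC
Gstm7, chr3:107931818-107932067, minus strand: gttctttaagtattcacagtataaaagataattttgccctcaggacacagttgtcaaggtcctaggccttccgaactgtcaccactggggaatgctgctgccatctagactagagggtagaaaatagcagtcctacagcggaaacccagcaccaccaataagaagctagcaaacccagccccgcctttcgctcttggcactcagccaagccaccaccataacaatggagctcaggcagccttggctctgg
Cyp4f16, chr17:32536307-32536556, plus strand: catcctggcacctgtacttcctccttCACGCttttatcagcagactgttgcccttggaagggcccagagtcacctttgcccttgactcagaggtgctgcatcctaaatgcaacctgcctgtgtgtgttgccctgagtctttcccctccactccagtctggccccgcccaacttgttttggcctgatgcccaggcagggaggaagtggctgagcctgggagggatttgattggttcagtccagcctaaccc

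Positions are counted upstream from the last base of each window, which for Cyp1b1 lies 20 bases and for Cyp4f16 1 base above the deposited start. Cyp1a1 held GCGTG at 54, and Cyp1b1 and Gstm1 each held it at 76. Gstp1 and Gstp2 both carried TGAGNNNGC, at 65 and 74. Gstm5 had TGACNNNGC at 9, with a GCGTG lying inside it at 5, and 1 further TGAGNNNGC and GCGTG each farther upstream. Cyp4f16 held GCGTG near the upper end, and none of these letters occurred in the window of Gstm7. RefSeq's table held 25 of the 31 tested members, 23 of them with upstream bases. Of these 23, TGACNNNGC was in 2 (10.2% of 32851 mouse promoters), GCGTG in 6 (28.2% of all) and TGAGNNNGC in 7 (14.4% of all). The last motif was added after the Gstp1 window had been seen. A match describes letters only.

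Libraries held between 15.1 M and 68.8 M counts, with a median of 34.8 M, and band 4 was shallower, with a median of 23.99 M, than bands 1 to 3 (36.4 M to 37.2 M). At 3 counts, taken as the limit that a count of 0 allows, the shallowest library resolves 0.198 CPM (counts over the library total in M) and the median library 0.0862 CPM, for counting error alone. Xist was under 50 CPM in 2 females and at least 313.1 CPM in the others. Of 4 Y-linked genes checked, 0 females held any count and 0 males lacked all of them. The 46 genes together took a median of 0.0346% of all counts, between 0.0256% and 0.0509%. Because whole islets were measured, fewer cells of a type and less RNA per cell cannot be told apart.

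Islet expression of these families was carried by few genes. The summed level of the 18 Gst genes was 150.8 to 351 CPM (median 230 CPM), and that of the 28 Cyp genes 72.7 to 201.9 CPM (median 117 CPM). Among the Gst genes, 6 had a median of at least 10 CPM, 6 lay between 1 and 10 CPM and 6 between 0.1 and 1 CPM. Of the Cyp genes, 4, 10 and 6 fell in these ranges, and 8 had a median under 0.1 CPM.

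Per kilobase of exon, the pi-class gene Gstp1 and the mu-class gene Gstm1 stood highest, at median levels of 24.6 and 23.8 CPM per kb, followed by Gstz1 at 16.3. Gstz1 (chr12:87147707-87164721) encodes the zeta-class enzyme that isomerises maleylacetoacetate in tyrosine breakdown, and was read at 51.1 to 146.99 CPM (median 83.2 CPM). Its SD between mice was the lowest of the tested members, at 0.246 (log2 CPM, sex and band removed). Set against the trend of dispersion with level it was not the steadiest, at percentile 58.6 of all tested genes, with Gstm4 at 17.3. Gstp1 (chr19:4035407-4037921) ran from 12.6 to 75.5 CPM (median 38.03 CPM) and Gstm1 (chr3:108012255-108017973) from 7.05 to 84.7 CPM (median 35.03 CPM). Both were therefore present in every mouse, over a range wider for Gstm1. The uncertain copies were beside them: Gstp1 shares 33.7% and Gstp2 54.3% of their 50-base exon windows with other genes, mainly each other, and their counts were whole numbers in 0.794% and 0% of libraries. The counts of these 2 genes therefore depend on how shared reads were divided.

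Next per kilobase came Cyp1a1 (9.05 CPM per kb), Gstm5 (8.97), Gstt1 (8.80), Cyp4v3 (8.58) and Gsto1 (6.49). Cyp1a1 (chr9:57697613-57703822), the P450 known for its induction through the aryl hydrocarbon receptor, had a median of 25.2 CPM and extended from 1.27 to 117 CPM. Its 95th percentile was 8.08 times its 5th, and no library lacked it. Cyp4v3 (chr8:45269671-45333216), counterpart of the human gene mutated in Bietti crystalline dystrophy and an omega-hydroxylase of fatty acids, ran from 8.30 to 58.4 CPM (median 32.7 CPM). The theta-class gene Gstt1 (chr10:75783813-75798584) had 2.33 to 26.7 CPM (median 13.5 CPM), the omega-class gene Gsto1 (chr19:47854970-47864790) 5.89 to 29.9 CPM (median 13.1 CPM) and Gstm5 (chr3:107895821-107898686) 2.41 to 24.3 CPM (median 11.5 CPM). Each of these genes was at 1 CPM or more in all mice.

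The remaining P450 genes with a median over 5 CPM were Cyp4f13 (10.7 CPM), Cyp2j6 of the epoxygenase subfamily 2J (10.4 CPM), the fatty acid hydroxylase gene Cyp2u1 (8.40 CPM), Cyp4f17 (5.24 CPM) and Cyp4f16 (5.07 CPM). Among genes best known from liver, Cyp3a13 had a median of 1.18 CPM and Cyp2d22 of 3.82 CPM, whereas Cyp2e1 (0.131 CPM), Cyp2a5 (0.0305 CPM), Cyp2d26 (0.0722 CPM) and Cyp2c65 (0.0259 CPM) were at or near the limit of 3 counts. Cyp1b1, a P450 of estradiol and retinoid metabolism, had a median of 1.012 CPM and spanned 0.0903 to 10.5 CPM.

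**Figure D1:**
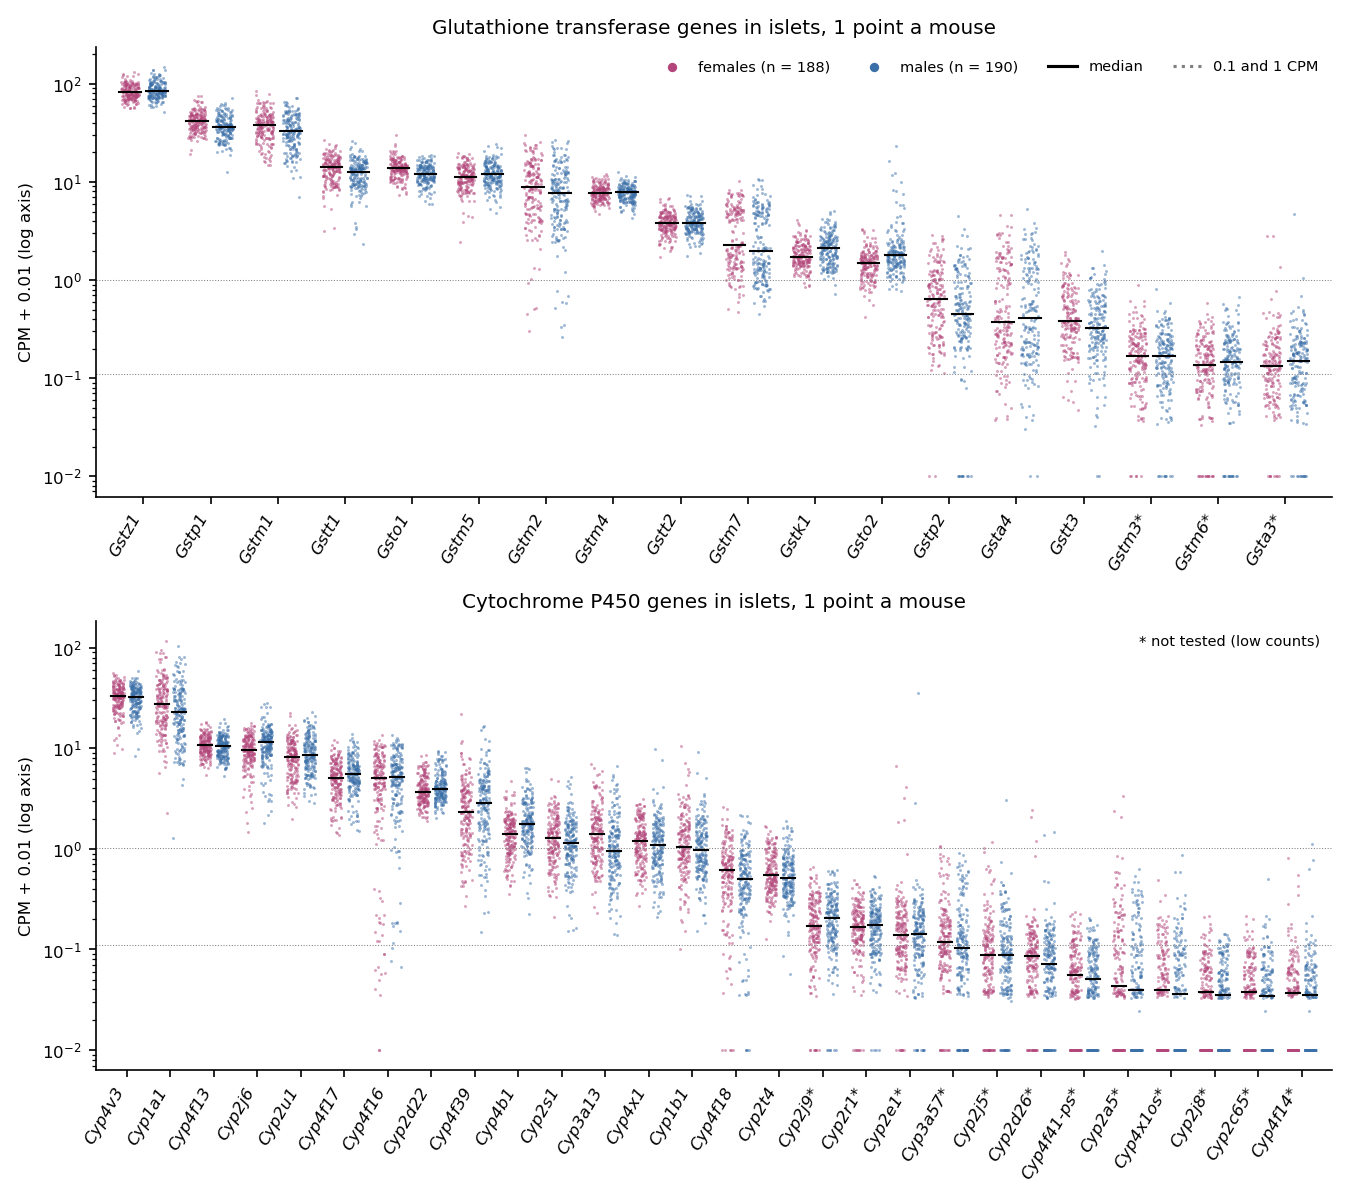
Level of each of the 46 genes across all mice as CPM + 0.01 on a log axis, with a point for each mouse (females red, males blue) and a bar at the median of each sex. Dotted lines stand at 0.1 and 1 CPM and asterisks mark genes that were not tested. Gstz1 lies highest with a narrow range, Gstm7 falls into an upper and a lower band of points, and Cyp4f16 has a tail of low mice.

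In 15 genes that did not pass the filter the median ran from 0.0259 to 0.171 CPM. Several of their high values came from the same libraries. In all, 6 libraries had at least 40 CPM of Alb, the albumin transcript of hepatocytes, against at most 24.7 CPM in the other 372 (a split chosen after the data were seen). In these libraries Cyp2e1, the ethanol-oxidising P450, stood at 3.19 CPM in female 37, 6.70 in female 38, 35.5 in male 73, 1.93 in female 350, 4.16 in female 370 and 2.83 in the last of them, a male of band 4. No other library exceeded 1.86 CPM. The highest library of Gsta3 (4.68 CPM), Cyp2a5 (3.33 CPM), Cyp2d26 (2.42 CPM), Cyp2j5 (3.08 CPM), Cyp4f14 (1.11 CPM) and Gstm3 (0.887 CPM) was also one of the 6, so 7 of the 15 untested genes peaked there, and 0 of the 31 tested ones. Of 20 hepatocyte genes listed after seeing the data, 16 were in the table and 10 had their highest library among the 6. Alb, which defined the 6 libraries, is itself counted among the 10. The part of liver RNA in these values was not tested.

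Between mice, the tested members spread more widely than most genes. Their median SD (log2 CPM, sex and band removed) was 0.623, against 0.335 over all 16927 tested genes, and 5 of the 31 lay under that all-gene median. Low genes spread more on this scale. Set against the trend of dispersion with level, 3 of the 31 were in the top 5% of genes, Cyp1a1 at percentile 96.4, Gsta4 at 95.8 and Cyp4f16 at 95.5.

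Some members were nearly silent in some mice and clearly read in others. A gene was called on-off if at least 5% of libraries were under 0.1 CPM and at least 5% at 1 CPM or more. In the shallowest library 0.1 CPM is 1.51 counts, in the median one 3.48 and in the deepest 6.88. The rule took 3 of the 31 members, Gsta4, Cyp4f18 and Gstt3, where over all tested genes it took 3.95%.

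Gsta4 (chr9:78191966-78209348) encodes the alpha-class enzyme that conjugates the lipid peroxidation product 4-hydroxynonenal. It was under 0.1 CPM in 38 mice (10.1%) and at 1 CPM or more in 30.2% of them. Females ran from 0.0276 to 4.58 CPM (median 0.365 CPM) and males from 0 to 5.27 CPM (median 0.398 CPM). The off and on mice were spread over both sexes, with 18 females and 20 males off and 58 females and 56 males on. None of the 50-base windows of Gsta4 are shared with another gene and all its counts were whole numbers.

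Cyp4f18 (chr8:71988482-72009626), known for oxidation of leukotriene B4 in neutrophils, was off in 32 mice and on in 58. Its range was 0 to 2.59 CPM in females (median 0.602 CPM) and 0 to 2.16 CPM in males (median 0.488 CPM). Gstt3 was off in 25 mice and on in 28, between 0 and 1.96 CPM. Fewer mice were thus clearly on than for Gsta4. Gstt3 also shares 12.5% of its windows with other genes.

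A second rule asked whether a gene's values, with sex and band removed, were better described by 2 overlapping normal distributions than by 1 (on log2(CPM + 0.1), the smaller holding at least 5% of mice, the means at least 2 pooled SDs apart by Ashman's D). It took 6 of the 31 members (Cyp4f16, Gsta4, Gstm7, Cyp4f18, Cyp4f17 and Cyp2d22), against 8.94% of all tested genes. The members' share was 19.4%. In the deposited variance-stabilised values 5 members were called, 4 of them the same, with Cyp3a13 in place of Cyp4f18 and Cyp4f17.

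The widest gap was that of Cyp4f16 (chr17:32536558-32551798), a member of the fatty acid and eicosanoid hydroxylase family. In females it ran from 0 to 13.6 CPM (median 5.01 CPM) and in males from 0.0570 to 13.5 CPM (median 5.24 CPM). The low component held 11.98% of mice and lay 3.99 below the high one on the log2 scale (Ashman's D 4.50). It was under 0.1 CPM in 14 mice, 11 females and 3 males, and at 1 CPM or more in 88.9% of mice. Cyp4f16 shares 17.4% of its windows with other genes, 16.3% with Cyp4f37, and its counts were whole in 47.4% of libraries, so the values depend on how those reads were counted.

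Gsta4 split into 63.7% low and 36.3% high mice, with means 2.34 apart. For the mu-class gene Gstm7 (chr3:107926334-107931817) the shares were 57.2% and 42.8% and the means 1.89 apart (Ashman's D 4.11). Gstm7 ran from 0.468 to 10.2 CPM in females (median 2.28 CPM) and from 0.439 to 10.7 CPM in males (median 1.98 CPM), so it was never absent. Its counts were whole throughout and 0.532% of its windows are shared. Cyp4f18 had a low component of 10.3%, Cyp4f17 (chr17:32506462-32528894) one of 7.57% with means 1.40 apart, and Cyp2d22 (chr15:82370528-82380260) a high one of 20.8% only 0.84 apart. Just outside the rule, Gstm2 had a low component of 4.14% lying 3.49 lower, and Gstt1 one of 3.14%. The sources used here do not say whether read counting allowed for founder sequences.

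**Figure D2:**
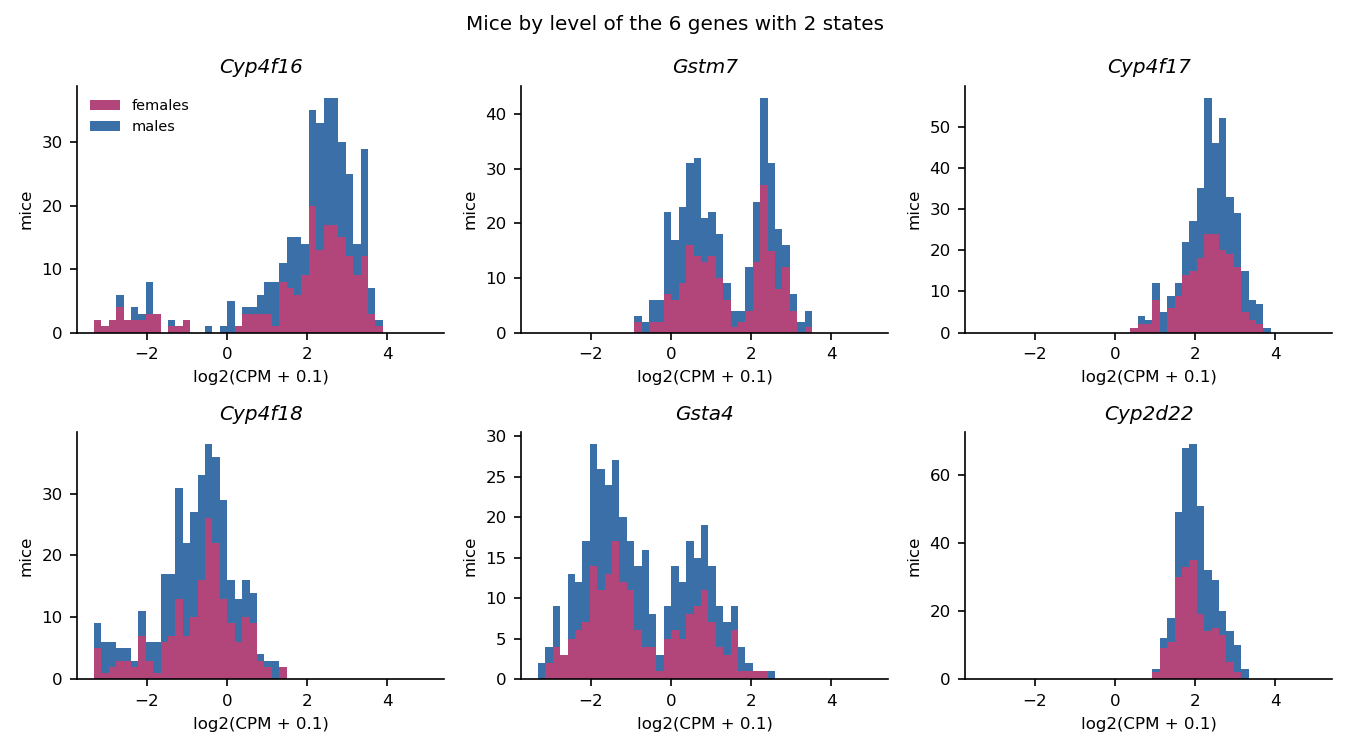
Number of mice, females and males stacked, at each level of the members called 2-state, on an axis of log2(CPM + 0.1). Cyp4f16 has a low tail apart from the main peak, Gsta4 and Gstm7 have broad low and high groups in both sexes, and Cyp2d22 shows a shoulder.

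The one contrast in the labels is sex. Gsto2 and Cyp4b1 were lower in females and Cyp3a13 higher, and no other member that passed the test differed by 0.3 or more on the log2 scale. By edgeR's quasi-likelihood test with Benjamini-Hochberg adjustment, 16 of the 31 members passed 0.05, or 51.6%, against 50.6% of all tested genes. Of the 16, 6 were higher in females (background 21.7%) and 10 lower (background 28.8%), so the share called was close to that of other genes. Differences of at least 0.3 were called in 3 members, where 9.03% of all genes had one. The median difference was 0.00 for the members and -0.01 for all genes. The ranges of females and males overlapped in all 31, and 15 of the 16 called differences kept their sign in all 4 bands.

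Gsto2 encodes an omega-class enzyme that reduces dehydroascorbate. Females ranged from 0.409 to 3.28 CPM (median 1.497 CPM) and males from 0.761 to 23.1 CPM (median 1.80 CPM). The medians were close, and 19 males lay above the highest female. The female minus male difference was -0.68 ± 0.0781 (log2, SE; adjusted p = 5.40e-15), and -0.92, -0.60, -0.40 and -0.82 in bands 1 to 4. Without the highest library, male 95, it was -0.62. With 5 cell type scores as covariates it was -0.44 (adjusted p = 1.61e-07). The 5 scores were acinar, duct, endothelial, stellate and fibroblast, and macrophage, with no alpha, beta or delta cell score.

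The 6 highest Gsto2 libraries were all males, at 23.1 CPM (male 95), 16.3 CPM (male 88), 12.4, 11.7, 9.97 and 8.29 CPM. The summed level of 13 stellate cell and fibroblast genes was 524, 538, 1582, 572, 246.03 and 756 CPM in the same order. Its median was 141.8 CPM among females and 167.03 CPM among males. Of these 6 libraries 5 thus ranked among the 6 highest of all libraries for that list. Its part in the sex difference was not tested beyond the covariate fit.

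Cyp4b1, a P450 best known from lung, ranged from 0.350 to 4.73 CPM in females (median 1.41 CPM) and from 0.214 to 6.34 CPM in males (median 1.76 CPM). The difference was -0.49 ± 0.0760 (adjusted p = 4.05e-09), with -0.16, -0.86, -0.34 and -0.60 in the bands, and -0.21 beside the cell type scores (adjusted p = 0.0243). Cyp3a13, a member of the steroid- and drug-oxidising 3A family, was read at 0.219 to 7.02 CPM in females (median 1.40 CPM) and 0.129 to 6.66 CPM in males (median 0.950 CPM). It differed by 0.35 ± 0.0951 (adjusted p = 0.000793) and by 0.56, 0.34, 0.29 and 0.24 in bands 1 to 4. Beside the cell type scores the Cyp3a13 difference was 0.15 and did not pass (adjusted p = 0.265). No alpha cell score was in that fit. The median summed level of 9 alpha cell markers was 23994.5 CPM among females and 11456.1 CPM among males.

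Among the transferases, Gstk1, the mitochondrial and peroxisomal kappa-class gene, was lower in females at -0.30 (adjusted p = 8.90e-08), just under the size limit before rounding. Its range was 0.849 to 4.06 CPM in females and 0.712 to 5.02 CPM in males. Gstm5 (-0.15) and Gstz1 (-0.10) were also lower in females, Gstz1 without the same sign in band 3 (0.01). Higher in females were Gstp1 (0.14), Gsto1 (0.16), Gstm1 (0.16) and Gstt1 (0.11). Beside the cell type scores Gstm1 (0.11, adjusted p = 0.125) and Gstz1 (-0.04, adjusted p = 0.247) did not pass, and without band 4 Gstm1 (adjusted p = 0.123) and Gstt1 (adjusted p = 0.131) did not. Median Gstp1 was 41.98 CPM among females (19.4 to 75.5) and 36.6 CPM among males (12.6 to 72.3). The neighbours Gsto1 and Gsto2, 10.6 kb apart from start to start, thus passed in opposite directions.

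Of the P450 genes, Cyp1a1 was higher in females by 0.23 ± 0.0865 (adjusted p = 0.0211), with a median of 27.4 CPM (2.29 to 117) against 22.9 CPM in males (1.27 to 104.25). Lower in females were Cyp2j6 (-0.27), Cyp2u1 (-0.21), Cyp4f17 (-0.19), Cyp2d22 (-0.16) and Cyp4f39 (-0.29), an omega-hydroxylase of very long fatty acids in skin. Beside the cell type scores Cyp4f17 (-0.11, adjusted p = 0.193), Cyp2d22 (-0.06, adjusted p = 0.408) and Cyp4f39 (0.03) did not pass, and without band 4 Cyp2d22 did not (adjusted p = 0.121). The 15 members that did not pass lay between -0.15 and 0.23, and included the on-off genes Gsta4 (0.00), Cyp4f18 (0.18) and Gstt3 (0.23, adjusted p = 0.0519).

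**Figure D3:**
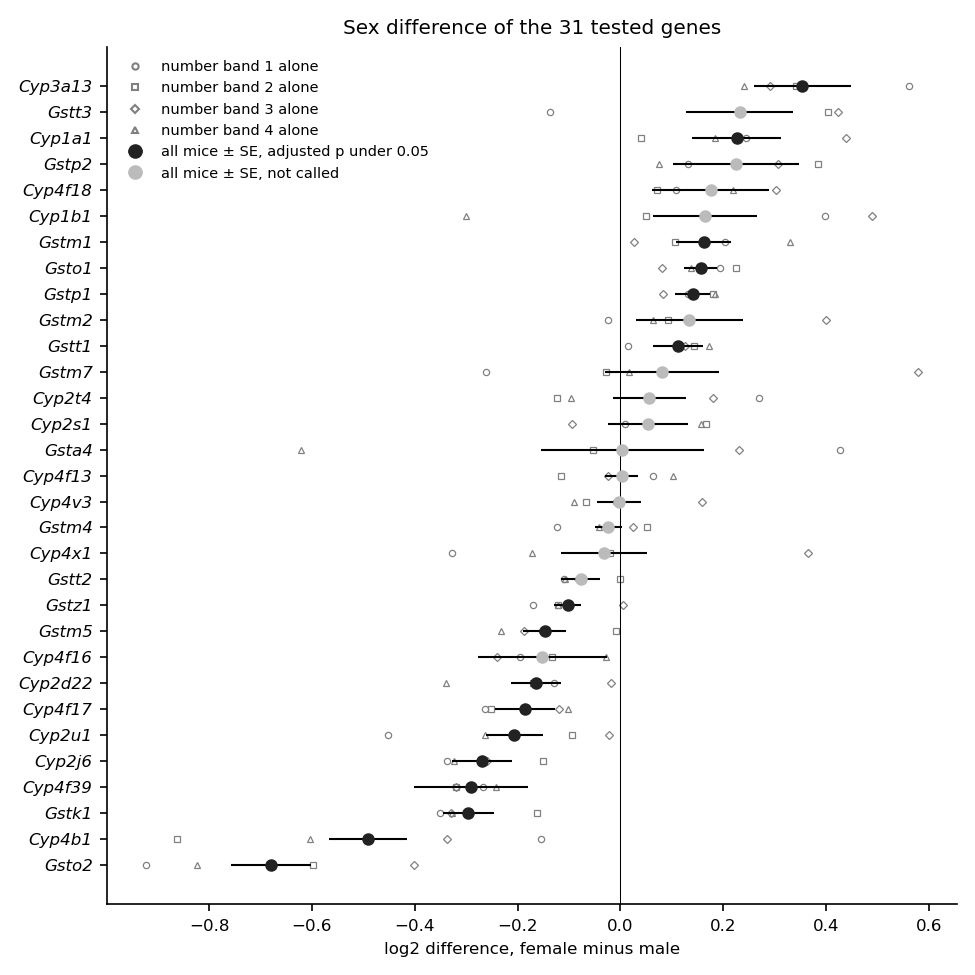
Female minus male difference (log2) of the 31 tested members, as filled points with bars of 1 standard error (dark where the adjusted p was under 0.05), and the same value in each number band alone as open marks. Gsto2 and Cyp4b1 lie farthest to the male side, Cyp3a13 farthest to the female side, and most members lie within 0.3 of 0.

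Genes that act with these enzymes were read from 6 lists chosen with earlier results of these data known, and 56 of their tested genes (54.4%) passed for sex, against 50.6% of all genes. In glutathione synthesis and use, 6 of 24 rose and 9 fell in females (median difference -0.01). Gpx3, a secreted glutathione peroxidase, was higher by 0.67 and Gclc, the catalytic subunit of the first synthetic step, by 0.09. Chac1, which degrades glutathione, was lower in females (-0.64), as was Ggt5, a gamma-glutamyltransferase (-0.53). Of 9 microsomal and other glutathione transferase genes 3 were higher and 5 lower in females, with a median of -0.10. They included Hpgds, the prostaglandin D synthase of the sigma class (0.24), Clic1 (0.08), Gdap1 (-0.10) and the prostaglandin E synthase gene Ptges (-0.16).

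Of 21 P450 partners and other phase 1 enzymes 6 were higher and 3 lower (median 0.01), and 12 did not pass. Fmo1, a flavin monooxygenase, rose by 0.36 and Alas1, the entry enzyme of haem synthesis, by 0.09 in females. The reductases Nqo2 (-0.11) and Cbr3 (-0.22) were lower. Of the 10 P450 genes outside families 1 to 4, 6 were lower and none higher in females (median -0.12), led by the retinoic acid hydroxylase gene Cyp26b1 at -1.50 ± 0.185 (adjusted p = 2.23e-13), with Cyp20a1 at -0.12. In conjugation and export 4 of 19 were higher (Ugt8a by 0.83, Sult4a1 by 0.35) and 3 lower (Abcc3 -0.20, Abcc2 -0.36), with a median of -0.02. Of 20 regulators 2 were higher (Mafg 0.09, Maff 0.16) and 9 lower, among them the oxysterol receptor Nr1h3 (-0.43) and the retinoid receptor Rxra (-0.20), and the median was -0.06.

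Levels in the counts also moved with the number band. In edgeR's test of the 4 bands, 18 of the 31 members passed (87.9% of all genes did). The difference of band 4 from band 1 (log2) was -0.94 for Cyp3a13 and 0.80 for Cyp2u1. Median levels in bands 1 to 4 were 1.57, 1.20, 1.22 and 0.709 CPM for Cyp3a13, and 6.37, 8.04, 7.96 and 11.6 CPM for Cyp2u1. In the deposited variance-stabilised values no gene (0.0% of 16927) differed by band in limma, also at an unadjusted p under 0.05. Values unrelated to band would pass that unadjusted limit at a share near 0.05, so this is no test of the band differences in the counts. Why none passed was not tested. Band was a covariate in every test on counts. In edgeR's test of whether the sex difference changed between bands 0 of 31 members passed, where 1.09% of all genes did, and 5 had an unadjusted p under 0.05 (Cyp4b1, Cyp4x1, Cyp1b1, Cyp2u1 and Gstm7).

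Neighbouring members were then compared over all mice, with sex and band removed from log2 CPM. There were 22 pairs of tested members within clusters of 1 Mb, and 19 passed an adjusted permutation p of 0.05. Other neighbouring genes were not put to this test, so the count of 19 has no background share. With 100000 permutations within sex and band, 1e-05 is the smallest p they can give. In 6 of the 22 pairs (27.3%) r was at least 0.3 and in 3 (13.6%) at most -0.3. Over all 16429 pairs of neighbouring tested genes within 1 Mb these shares were 22.8% and 2.31%. The 2 sets are not alike, since the 16429 are pairs of adjacent genes and the 22 are all pairs inside a cluster, adjacent or not. The median absolute r was 0.26 in the 22 pairs and 0.16 over all neighbouring pairs. Members on different chromosomes formed 425 pairs, 6 with r of at least 0.3 and 1 at most -0.3, with a median of 0.02.

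The mu-class cluster on chromosome 3 held opposed genes within 144.6 kb. Along the chromosome lie Gstm5, Gstm7, Gstm2, Gstm1 and Gstm4. Mice high in Gstm7 were low in Gstm1 (r = -0.51, Spearman's rho = -0.53, adjusted p = 1.69e-05), in each band (r between -0.56 and -0.46) and in both sexes (-0.52 and -0.50). Gstm7 also ran against Gstm5 (r = -0.43, rho = -0.46), with -0.46 without the 2 farthest mice.

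Gstm7 and Gstm2 rose and fell together (r = 0.49, rho = 0.60, bands 0.37 to 0.59), as did Gstm5 and Gstm1 (r = 0.40, rho = 0.43, bands 0.25 to 0.61), the latter at 0.60 in females and 0.21 in males. The cluster thus held a pair at Gstm7 and Gstm2 and a pair at Gstm5 and Gstm1, although Gstm2 lies between Gstm7 and Gstm1. Gstm4 was opposed to Gstm2 (r = -0.33) and less to Gstm1 (r = -0.22), and r was 0.11 with Gstm5 (adjusted p = 0.0318). For Gstm5 with Gstm2 (r = 0.07, adjusted p = 0.209) and Gstm7 with Gstm4 (r = -0.04, adjusted p = 0.407) no relation passed. Gstm2 with Gstm1 passed at r = 0.12 (adjusted p = 0.0222) but not in ranks (rho = 0.0061, adjusted p = 0.936).

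Levels in this cluster give the scale of these relations. Gstm2 (chr3:107981702-107986453) ran from 0.295 to 29.98 CPM in females (median 8.80 CPM) and 0.253 to 27.05 CPM in males (median 7.64 CPM), and its 95th percentile was 10.4 times its 5th. Gstm4 (chr3:108040408-108044894) varied least in the cluster, from 4.33 to 12.6 CPM, with an SD of 0.252. Shared 50-base windows made up 18.9% of Gstm1 (14.1% with Gstm2-ps1), 9.44% of Gstm5, 5.65% of Gstm2, 0.532% of Gstm7 and 0% of Gstm4. Gstm1 counts were whole in 2.91% of libraries, those of Gstm7 in all. The part of shared reads in these relations was not tested.

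On chromosome 17, Cyp4f17 and Cyp4f16, 30.1 kb apart, gave the strongest relation among the members (r = 0.73, rho = 0.60, adjusted p = 1.69e-05), with 0.64 to 0.78 in the bands and 0.73 without the 2 farthest mice. They share 1.72% of the windows of Cyp4f17. Cyp4f39, which starts before Cyp4f17 on the chromosome, followed both more weakly (r = 0.35 with Cyp4f16 and 0.29 with Cyp4f17). Cyp4f13, 388.1 kb beyond Cyp4f16 from start to start and on the other strand, ran the opposite way (r = -0.24 with Cyp4f39, -0.24 with Cyp4f17 and -0.25 with Cyp4f16). In band 1 the last 2 values were 0.02 and -0.04. Cyp4f13 itself ranged from 5.33 to 19.5 CPM, with no silent mice.

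The theta-class genes on chromosome 10 moved together in each pair: Gstt3 with Gstt2 (r = 0.43), Gstt1 with Gstt2 (r = 0.38) and Gstt3 with Gstt1 (r = 0.27), all with an adjusted p of 1.69e-05. Gsto1 and Gsto2 on chromosome 19 were weakly related (r = 0.21, adjusted p = 0.000124). For Gstp1 and Gstp2 no relation passed (r = 0.07, rho = 0.02, adjusted p = 0.184). They share windows, and their upstream sequences are printed above. Cyp4x1 and Cyp4b1 on chromosome 4 were slightly opposed (r = -0.17, adjusted p = 0.00132). Cyp4x1 overlaps its antisense transcript Cyp4x1os (9.74% of its windows), and the sources used here do not say whether counting used strand.

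**Figure D4:**
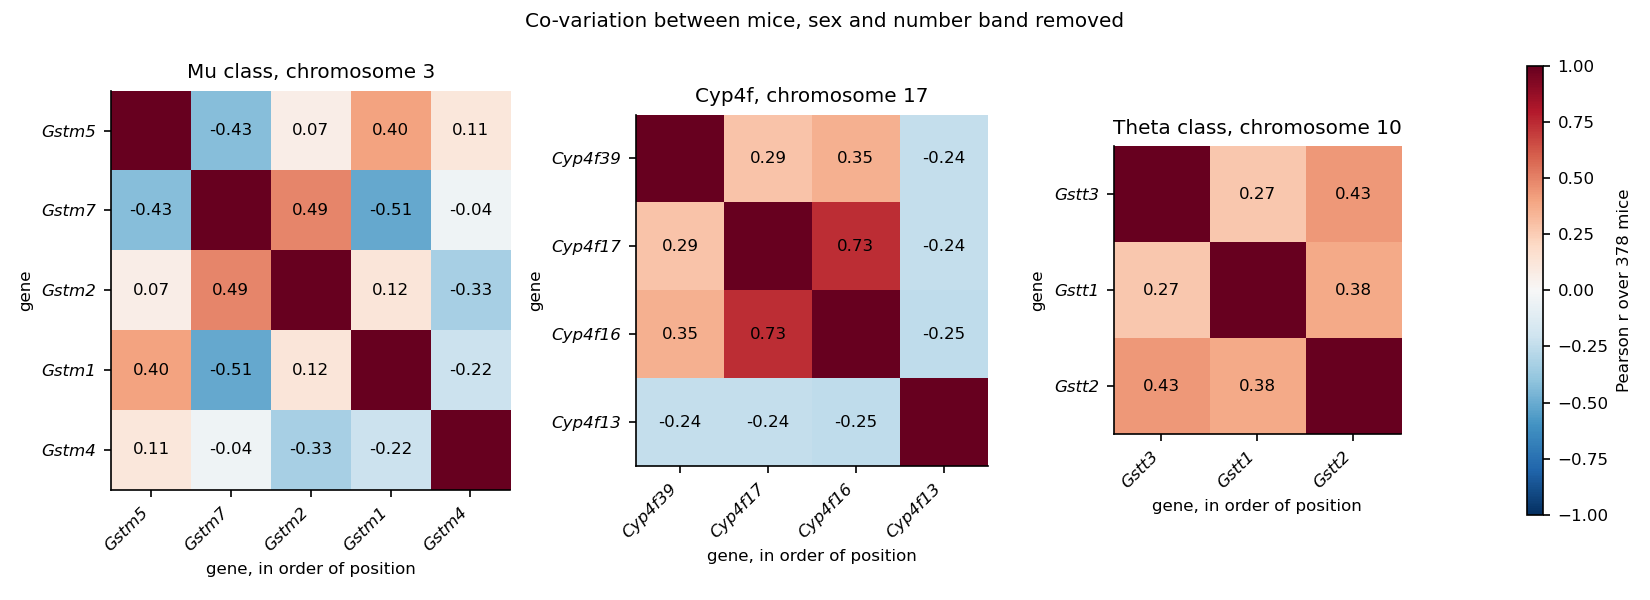
Pearson's r between tested members of 3 clusters over all mice (log2 CPM, sex and band removed), genes in chromosome order, red for positive and blue for negative. Gstm7 is blue with Gstm5 and Gstm1 and red with Gstm2, Cyp4f16 and Cyp4f17 form the darkest red pair, and the 3 theta-class genes are all red.

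Correlates outside the families were sought with 19 gene lists, each scored as the mean log2 CPM of its tested genes, for the 26 members with a mean of at least 1 CPM. Of 494 relations, 20 had an absolute r of at least 0.3 with an adjusted permutation p under 0.05 (9.88e-05 for each of the 20, from the smallest p the permutations can give). By list, between 0.0419% (adipocyte) and 16.0% (proliferation) of all tested genes with a mean of at least 1 CPM reached this size. No list took more than 3 of the 26 members. The lists that took 3 were proliferation (16.0% of genes), delta and PP cell (7.11%) and lymphocyte (9.24%). A share over all lists together was not computed for all genes, so the count of 20 is not read as a result about these families. Cyp1b1 stood out in size, with r = 0.59 (rho = 0.55) with the 13 stellate cell and fibroblast genes, 0.53 to 0.63 in the bands and 0.56 without the 2 farthest mice. Of all genes with enough reads, 8.37% had an absolute r of at least 0.3 with that score, and no share was computed at the size of Cyp1b1. Cyp1b1 also followed the Schwann cell score (r = 0.33, 2.0% of genes).

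Cyp3a13 followed the alpha cell score (r = 0.43, rho = 0.41, bands 0.27 to 0.55, 4.52% of genes) and the delta and PP cell score (r = 0.35, rho = 0.29, 7.11% of genes). With sex alone removed these were 0.22 and 0.28, under the limit of 0.3. Cyp4b1 followed the endothelial score (r = 0.36, rho = 0.34, bands 0.27 to 0.41, 11.3% of genes). Gsto2 was higher with the stellate and fibroblast score (r = 0.33) but not in ranks (rho = 0.12, adjusted p = 0.0561), and with the proliferation score (r = 0.37, rho = 0.21, 16.0% of genes) and the targets of PPAR other than Cyp4 (r = 0.36, rho = 0.26, 5.7% of genes). Without the 2 farthest mice the stellate relation was 0.25. Gsto2 ran against the delta and PP cell score (r = -0.32, rho = -0.15) and the lymphocyte score (r = -0.32). No member was called with the acinar score (0.538% of genes were), whose summed level ran from 132.02 to 65804.5 CPM. None was called either with the duct (3.49% of genes), beta cell (11.0%), adipocyte (0.0419%), mesothelial (0.112%) or red blood cell (0.0907%) scores, with ATF4 and CHOP targets (7.37%) or with the interferon response (6.0%). The adipocyte and mesothelial scores rested on 1 gene each.

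Further relations concerned the abundant members. Gstp1 rose with 17 NRF2 targets other than Gst genes (r = 0.395, rho = 0.39, bands 0.26 to 0.52), and so did Cyp1a1 more weakly (r = 0.30, rho = 0.29, bands 0.21 to 0.41). An absolute r of at least 0.3 with this score was found in 2.63% of genes. Gstp1 also followed the alpha cell score (r = 0.34) and the delta and PP cell score (r = 0.35) and ran against proliferation (r = -0.32). Gstz1 rose with proliferation (r = 0.45, rho = 0.40, bands 0.37 to 0.51) and with ER chaperones (r = 0.32, 7.31% of genes), and fell with the lymphocyte score (r = -0.34, 9.24% of genes). With sex alone removed the Gstz1 relations to ER chaperones (0.25) and lymphocytes (-0.24) were under the limit, and without band 4 so was that of Cyp1a1 (0.27). Gstp1 and Gstz1 were thus opposed in their relation to the proliferation genes.

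The lymphocyte score rested on 2 of 10 listed genes, Cd79a and Lck, since the other 8 did not pass the filter. Cyp2s1 followed it (r = 0.33), and Cd79a lies 0.905 Mb from Cyp2s1, with r = 0.42 between them. Cyp4f39 ran against the macrophage score (r = -0.30, 5.2% of genes), with -0.13 in band 1. These lists describe bulk islet libraries and say nothing of which cell made a transcript.

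**Figure D5:**
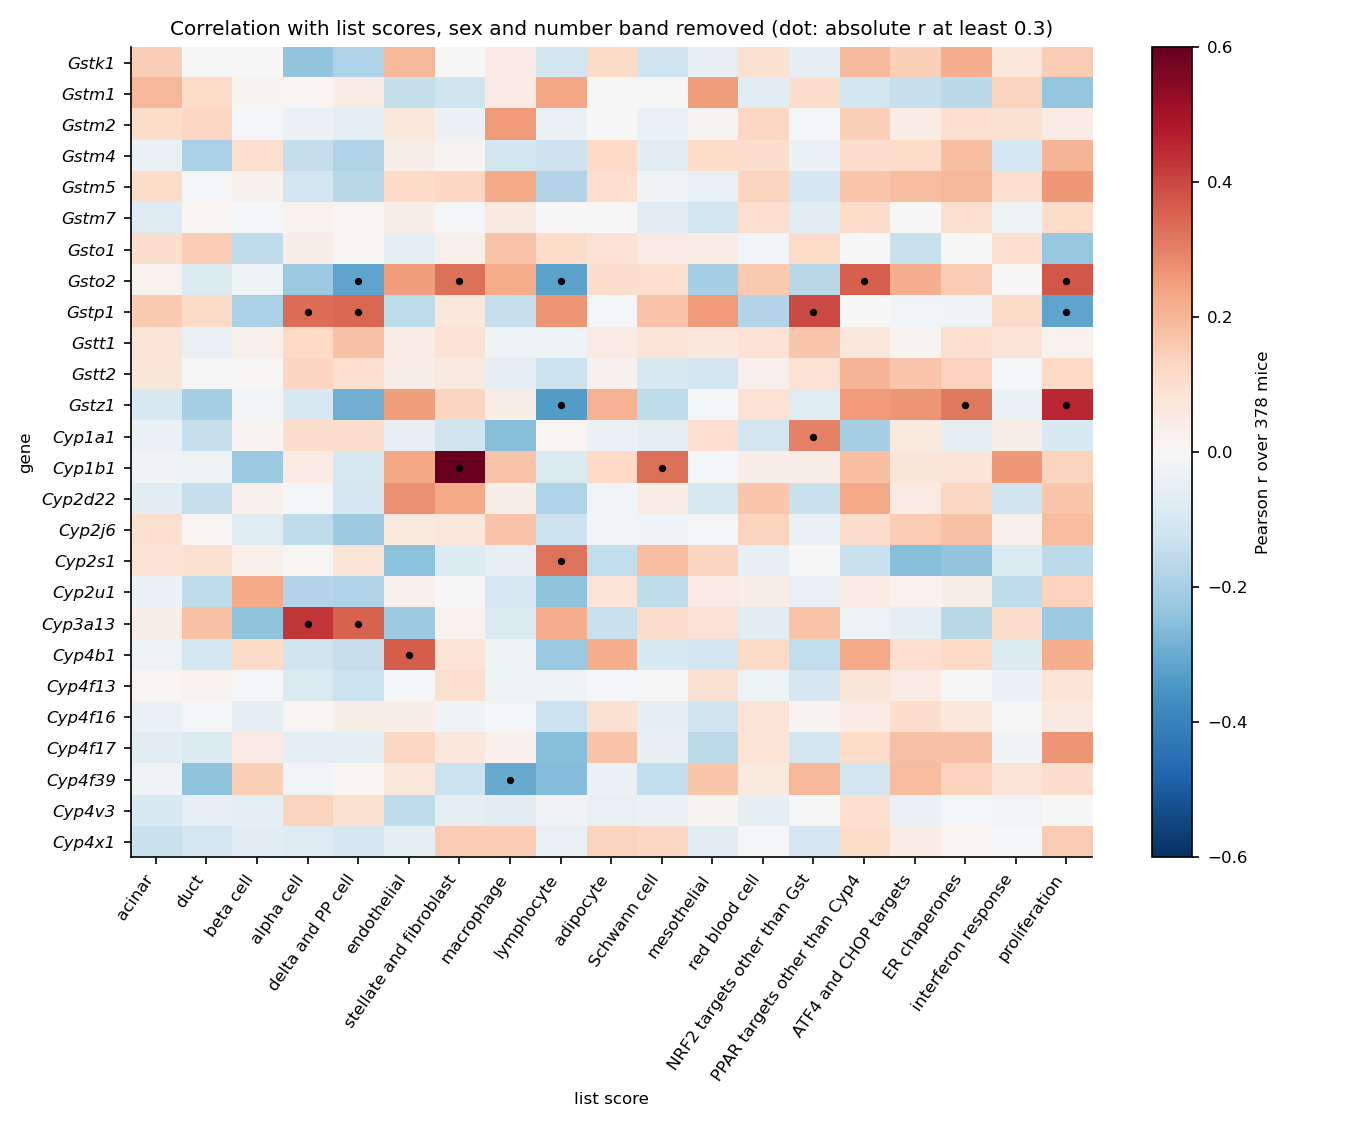
Pearson's r of each of 26 members with each of 19 gene list scores over all mice (sex and band removed), red for positive and blue for negative, with a dot on the 20 relations called. The dots of Cyp1b1 fall on the stellate and Schwann cell lists, those of Cyp3a13 on alpha and delta cells, and Gsto2 has the most dots, 5.

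Single genes most like each member were named by a fixed rule, as a description over all mice, from the same libraries. Gstz1 had the closest partners beyond 5 Mb, Smpdl3a (r = 0.605) and Ccpg1 (r = 0.60). Gstp1 was most like Pgd, of the pentose phosphate pathway (r = 0.51), and Wdr4 (r = 0.49). For Cyp1a1 these were Xpc (r = 0.38) and Dgcr8 (r = 0.37), and for Cyp2j6 Leprot (r = 0.48) and Yipf1 (r = 0.44). Leprot and Yipf1 lie on chromosome 4, as does Cyp2j6, so a gene beyond 5 Mb can still be linked. Gstm5 was most like Supt4a (r = 0.47) and Eif3h (r = 0.44).

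Genes nearby were often closer. Both Gstm1 (r = 0.64) and Gstm5 (r = 0.675) went with 4933431E20Rik, which shares windows with Gstm5, whereas Gstm7 was closest to Cyb561d1 (r = 0.58) and Gstm2 to 1700013F07Rik (r = 0.53). Beyond 5 Mb, Gstm7 and Gstm2 both had Amy2b among their first 2 genes (r = 0.41 and 0.44). Amy2b starts at 113.15 Mb of the same chromosome 3, little past that limit. Gstt1 went with Ddt (r = 0.61), Cyp4v3 with Gm16675 (r = 0.55), Cyp2u1 with Manba (r = 0.525), Cyp2d22 with Cby1 (r = 0.56), Cyp4f13 with Rsph1 (r = 0.51) and Cyp4f18 with 1700030K09Rik (r = 0.58). For Gsta4 the largest r of the genes compared was 0.31 (Prss35, on the same chromosome 9). Gstt3 was closest to its neighbour Gstt2 (r = 0.43).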

How the data were processed

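RNA-seq of mouse islets was read from 2 deposited tables. The first holds estimated counts per gene as the authors deposited them, not scaled between libraries and often fractional. They were rounded to whole numbers. The second holds variance-stabilised, log2-like values that the authors deposited. The sources used here do not give the aligner, the counter, the annotation or the strand setting. The submitters' processing notes name GRCm38 and DESeq2, without versions.

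Members and gene lists were chosen with earlier results of these data known. Genes were filtered with filterByExpr by sex, leaving 16927, and sex was tested with edgeR 4.0.16 in R 4.3.3 (TMM factors, number band as covariate, quasi-likelihood F test, Benjamini-Hochberg adjustment over all tested genes, threshold 0.05, female minus male). All adjusted p-values for sex and band are from this test. A standard error is the absolute log2 difference over the square root of F. CPM is the rounded count over the library total, and CPM per kb divides it by the exon union length of GENCODE release 21. The 2-state rule needed a gain in the Bayesian information criterion over 10 and an Ashman's D of at least 2. Correlations used log2 CPM (TMM, prior count 2) and two-sided permutation tests of 100000 resamples within sex and band (Python 3.11.15, NumPy 2.4.6, SciPy 1.17.1), adjusted over 22 pairs or 494 list relations. Each library is a different mouse, so p-values rest on the spread between mice.

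Full statistics were given for members past the sex threshold with a difference of at least 0.3, on-off and 2-state members and the most abundant per length. Of each pathway list, the 2 genes per direction with the smallest adjusted p were named. Of the genes most alike, the rule took the 2 of largest r beyond 5 Mb, whether on the same or another chromosome. It also took the 1 of largest absolute r within 5 Mb, and not all of these genes are printed. The high-Alb libraries, the motif TGAGNNNGC and the highest Gsto2 library were chosen after seeing the data.

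On simulated counts for the sex difference (16927 genes, 50 per fold size) the test recovered 50% of genes after a 1.1-fold change, 86% (1.25-fold), 98% (1.5-fold) and 100% (2-fold), with 8 false calls. Alternatives were other size factors, no filter, no covariate, cell type scores, each band alone, DESeq2 1.42.0, limma 3.58.1 on the deposited values, other thresholds and libraries left out.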

Additional observations from a re-analysis of the deposited data

How the results depend on the processing

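The count of members called for sex was 14 to 18 under 9 of the 14 alternatives, against 16. It was 10 beside 5 cell type scores. In number bands 1 to 4 alone, which hold fewer mice, it was 7, 3, 3 and 9. Pathway genes passed in 45 to 58 cases under most alternatives (56 reported), in 35 with the cell type scores, and in 12, 25, 15 and 32 in the single bands. Members called for band were 18, or 0 with limma on the deposited values, where no tested gene passed. The interaction count was 0 of 31, or 1 of 46 (Cyp2e1) without the filter. On-off calls were 3, 5 when off meant under 0.2 CPM (adding Gstp2 and Cyp4f16) and 0 when it meant no counts. The 2-state count was 5 to 7, pairs passing 18 to 20 of 22 and list relations 18 to 20. The members' median SD was 0.37 in the deposited values and 0.65 with a prior count of 0.5. Called sex differences that did not pass without band 4 were Gstt1, Gstm1 and Cyp2d22, and with the cell type scores Gstz1, Cyp3a13, Gstm1, Cyp2d22, Cyp4f17 and Cyp4f39. With sex alone removed, Cyp3a13 gave r = 0.22 with the alpha cell score and 0.28 with delta and PP cells. The cause of these changes was not tested. Sex differences of single members changed sign in 31 of their alternatives, all but those of Gstz1 and Cyp4f39 in members that had not passed. In band 1 these were Gstt3 -0.14, Gstm7 -0.26 and Gstm2 -0.025. In band 2 they were Gstm7 -0.027, Cyp4f13 -0.11, Gstm4 0.052, Gsta4 -0.053 and Cyp2t4 -0.12. In band 3 they were Gstz1 0.0053, Cyp4f13 -0.025, Gstm4 0.025, Cyp2s1 -0.094, Cyp4x1 0.37 and Cyp4v3 0.16. In band 4 they were Cyp1b1 -0.30, Gsta4 -0.62 and Cyp2t4 -0.097. With the cell type scores they were Cyp4f13 -0.011, Gstm4 0.0077, Cyp2s1 -0.089, Cyp4f39 0.035 and Cyp2t4 -0.042. Without band 4 they were Cyp4f13 -0.024, Cyp4x1 0.017 and Cyp4v3 0.033. Gsta4 was -0.0053 without the highest Gsto2 library and -0.0022 with DESeq2, Cyp4x1 0.022 with limma, and Cyp4v3 0.0030 with median-of-ratios factors, 2.16e-05 with limma and 0.0030 with DESeq2. Depth limits the genes under 0.2 CPM, where a library holds few counts. No paired analysis was possible because mouse numbers are unique and females and males share none.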

Other observations

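Among the male libraries highest in Gsto2, some were also highest in Cyp4x1, and 2 were high in Cyp1b1. Gsto2 was at 23.1 CPM in male 95 and 16.3 CPM in male 88, and at 12.4 and 11.7 CPM in a pair of males of band 4, A and B. Cyp4x1 was at 9.92 CPM in male A and 7.74 CPM in male 88, the highest and second highest of all libraries, against a median of 1.15 CPM. In male 95 Cyp4x1 was at 3.08 CPM (rank 7) and in male B at 2.00 CPM (rank 57). Cyp1b1 was at 9.23 CPM in male B and 5.69 CPM in male A, ranks 2 and 6, while its highest library was a female's (10.5 CPM). In the order male 95, male 88, A and B, 9 alpha cell markers summed to 5201, 4059, 3133 and 5495 CPM and 16 beta cell markers to 186836, 254180, 211137 and 276899 CPM. These libraries were picked for their Gsto2 level and the values are given as description.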
